A study of Homo sapiens with 18 samples.

Results

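EPCAM, CDH1, KRT7, KRT8, KRT18, KRT19, MUC1, CLDN3, CLDN4 and CLDN7 are genes of epithelial adhesion, keratin filaments and the mucin coat, and they were taken by symbol from the count table, where all 10 were found among 28277 listed genes. Epithelial cells hold to their neighbors through adherens junctions built on E-cadherin (CDH1) and through the calcium-independent adhesion molecule EPCAM, and they seal the space between cells with tight junctions whose strands are made of claudins. Inside the cell, keratins form filaments from obligate pairs of a type II chain (KRT7, KRT8) and a type I chain (KRT18, KRT19), the KRT8 and KRT18 pair being the one of simple epithelia. MUC1 is a transmembrane mucin of the apical surface. These genes are commonly used to mark carcinoma cells, and repressors such as SNAI1, SNAI2, ZEB1, ZEB2 and TWIST1 are known to lower many of them during epithelial-mesenchymal transition (EMT).

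RNA-seq libraries came from OVCAR3, a human ovarian adenocarcinoma cell line, transduced with dCas9-KRAB, a nuclease-dead Cas9 fused to a repressor domain that silences the promoter to which a guide RNA leads it. The cells carried a control guide, sgCtl (sgControl in the labels), or a guide to the XIST promoter, sgXIST7 or sgXIST9 (XIST KD), and were kept without further treatment (normoxia) or for 24 h at 1% oxygen (hypoxia). Each of the 6 groups had 3 replicates, 18 libraries in all. The study sequenced clonal cells, but the number of clones for each guide is not given in the sources used here. The cells of each guide are called 1 clone below, and guide and clone cannot be told apart. All 3 carry dCas9-KRAB, and where replicates are repeat cultures of a clone the p-values measure only the spread between such cultures.

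Libraries held 11794375 to 24906936 counts. XIST, the targeted RNA, had 4213 to 11209 counts in the sgCtl normoxia libraries and 1589 to 5014 in the sgCtl hypoxia libraries, at most 5 in any sgXIST7 library, and 650 to 1009 (normoxia) and 357 to 510 (hypoxia) in sgXIST9. The response to low oxygen was present in each clone, where 7 of 8 hypoxia-induced genes were up-regulated. In sgCtl, sgXIST7 and sgXIST9 the log2 fold changes were 2.41, 3.41 and 2.59 for VEGFA, 5.17, 5.09 and 6.35 for NDRG1, and 5.92, 6.40 and 5.76 for ANKRD37. CA9 was at the detection limit in sgCtl normoxia and at least 6.46-fold higher in sgCtl hypoxia, and its log2 fold changes were 6.55 in sgXIST7 and 6.99 in sgXIST9. The root mean square log2 difference of a library from the others of its group was 0.182 to 0.340 in normoxia, and in hypoxia it was 0.576, 0.379 and 0.444 in the libraries numbered 3 of sgCtl, sgXIST7 and sgXIST9 and 0.224 to 0.420 in the other 6. The library numbered 3 was the highest of its hypoxia group in each clone, by little in sgXIST7, where replicate 1 had 0.363. Hypoxia results of KRT8 and MUC1 are therefore also given without these 3 libraries.

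In hg38, as the count table gives it, KRT8 lies at chr12:52897191-52949860 on the minus strand and KRT18 next to it at chr12:52948871-52952906 on the plus strand. The pair shares 135 exonic bases on opposite strands. KRT7 lies at chr12:52233243-52248921 (plus) and shares 221 exonic bases with its antisense gene KRT7-AS, and KRT19 lies at chr17:41523617-41528308 (minus). EPCAM is at chr2:47369311-47387020 (plus), CDH1 at chr16:68737292-68835536 (plus) and MUC1 at chr1:155185824-155192915 (minus). CLDN3 at chr7:73768997-73770270 (minus) and CLDN4 at chr7:73830863-73832693 (plus) are neighbors, and CLDN7 lies at chr17:7259903-7263193 (minus), with 38 exonic bases shared with ELP5 on the other strand. Whether reads were counted by strand is not given in the sources used here.

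Of the 50-base windows along the exons, 34.2% for KRT8 and 34.3% for KRT18 also occurred elsewhere in the genome, so counts of both genes depend on how such reads were treated. No other gene of the 10 had more than 1.8% of such windows, and MUC1 had 0%, although only 56.3% of its windows occurred once, the rest recurring within the gene itself.

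The start regions of 2 genes that changed, MUC1 and KRT8, and of CLDN3, which had no counts, are shown because the data bear on their transcription. The sequences are the 250 bases before the RefSeq start (GRCh38.p14), read 5′ to 3′ on the strand of the gene, at chr1:155192916-155193165 for MUC1, chr12:52926470-52926719 for KRT8 and chr7:73770271-73770520 for CLDN3. Capitals mark the E-box CACCTG or CAGGTG, the 6 bases that SNAI and ZEB repressors are known to bind, or the hypoxia response core ACGTG or GCGTG and their reverse complements CACGT and CACGC, each searched on both strands.
MUC1: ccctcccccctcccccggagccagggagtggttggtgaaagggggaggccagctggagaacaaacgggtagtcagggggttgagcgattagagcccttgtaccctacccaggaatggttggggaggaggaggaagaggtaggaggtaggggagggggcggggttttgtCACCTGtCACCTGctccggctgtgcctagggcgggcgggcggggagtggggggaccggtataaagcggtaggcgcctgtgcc
KRT8: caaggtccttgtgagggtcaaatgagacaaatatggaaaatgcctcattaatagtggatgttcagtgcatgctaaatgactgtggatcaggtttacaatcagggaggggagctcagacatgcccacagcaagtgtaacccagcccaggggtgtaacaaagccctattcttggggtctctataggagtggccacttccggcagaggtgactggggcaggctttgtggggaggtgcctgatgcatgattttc
CLDN3: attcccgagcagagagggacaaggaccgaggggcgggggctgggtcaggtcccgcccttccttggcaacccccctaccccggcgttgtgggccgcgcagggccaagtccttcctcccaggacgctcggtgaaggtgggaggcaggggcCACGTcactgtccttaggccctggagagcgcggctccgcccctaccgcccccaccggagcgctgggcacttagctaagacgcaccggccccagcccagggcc
MUC1 held 2 E-boxes, beginning 82 and 75 bases before the start, and no hypoxia response core. The CLDN3 window held 1 hypoxia response core, beginning 102 bases before the start, and no E-box. Neither motif was in the KRT8 window, which belongs to a start inside the span of the gene and is not the only start annotated for KRT8, and these libraries do not show which start was used. Over all 35116 windows of this length, 17.5% held an E-box and 43.2% a hypoxia response core. RefSeq windows were also searched for CLDN4, where neither motif was found, and for CLDN7, whose 2 windows held 0 and 4 E-boxes and 1 hypoxia response core each, so that 5 of the 10 genes were matched. EPCAM, CDH1, KRT7, KRT18 and KRT19 were not matched.

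The 10 genes covered a wide range of expression. EPCAM and KRT18 were among the highly expressed genes in every group, KRT8 was low to moderate, MUC1 was low, and CDH1, KRT7, KRT19, CLDN3, CLDN4 and CLDN7 were at or near the detection limit, set at 3 counts in a library (0.13 to 0.266 CPM, the count scaled to the size of its library). In sgCtl normoxia, levels per transcript length were 124 ± 8.84 CPM per kilobase for EPCAM (SD, n = 3) and 113 ± 7.01 for KRT18, with overlapping libraries, and 97.4% and 97.1% of the 14938 tested genes were lower. KRT8 followed at 4.07 ± 0.192 CPM per kilobase, with 42.7% of tested genes lower, and MUC1 at 0.195 ± 0.053, with 9.71% lower. The libraries of EPCAM and KRT18 did not overlap those of KRT8, and those of KRT8 did not overlap those of MUC1, whereas MUC1 overlapped CLDN4 (0.117 ± 0.0367 CPM per kilobase). In sgXIST9 normoxia the mean of MUC1 (0.207) was below that of CLDN7 (0.297), with overlapping libraries. EPCAM and KRT18 together made up 89.9% to 97.7% of the summed CPM of the 10 genes in each group.

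CDH1, which encodes E-cadherin, had 7 counts over all 18 libraries and at most 2 in any library. KRT7 had 6 counts in all and at most 3 in a library. CLDN3 had 0 counts in all 18 libraries, and by counting error alone the upper end of a 95% interval for their sum is 3.69 counts. These 3 genes were thus not detected above the limit in any group at this depth. KRT19, a type I keratin that lacks a tail domain, had 36 counts in all, with 5 in each sgXIST9 normoxia library, 8 in sgXIST7 normoxia replicate 2, and at most 2 in every other library. CLDN4, a claudin of low permeability to sodium, had 73 counts in all. Its counts were 3, 2 and 5 in sgCtl normoxia, 7, 6 and 8 in sgXIST7 normoxia and 5, 4 and 2 in sgXIST9 normoxia. CLDN7 had 95 counts in all, with 3, 1 and 3 in sgCtl normoxia, 9, 6 and 7 in sgXIST7 normoxia and 16, 11 and 9 in sgXIST9 normoxia. The 6 XIST KD normoxia libraries were thus all above the 3 sgCtl normoxia libraries for CLDN7. In hypoxia the CLDN7 counts were 1, 0 and 4 in sgCtl, 1, 3 and 4 in sgXIST7, and 5, 3 and 9 in sgXIST9, where the groups overlapped. None of these 6 genes passed the filter on low counts. When the filter was removed CLDN3, with 0 counts, could still not be tested, and none of the others was called in any of the 11 comparisons. The lowest adjusted p was 0.076 for KRT19 in sgXIST9 (hypoxia against normoxia, edgeR).

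**Figure D1:**
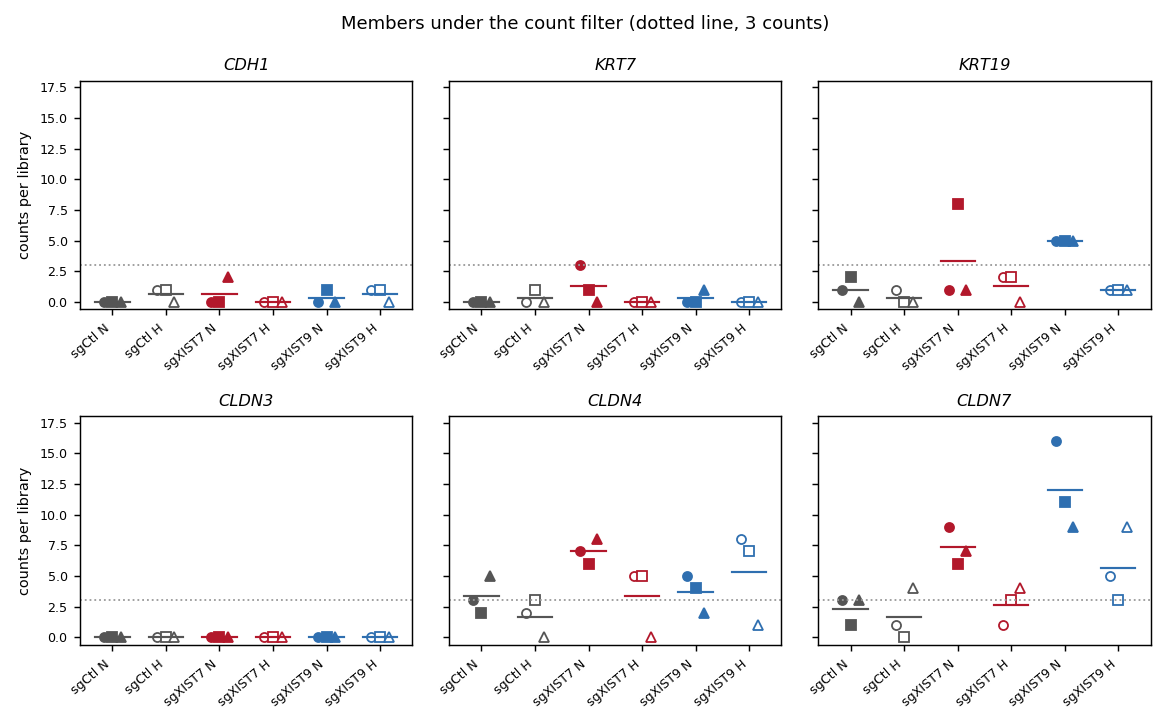
Counts per library (y axis) of the 6 genes that did not pass the filter, by group (x axis, N normoxia and H hypoxia, filled and open symbols; circle, square and triangle are replicates 1, 2 and 3; bars are means; the dotted line is 3 counts). CDH1, KRT7 and CLDN3 stay at or below 3 counts in all 18 libraries, and CLDN7 reaches 16 in sgXIST9 normoxia.

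The labelled origin of the cells was checked against markers of ovarian carcinoma. MUC16, which encodes the tumor antigen CA125, had at most 4 counts in a library, SOX17 at most 2, MECOM at most 3 and WT1 at most 14. PAX8, the Müllerian transcription factor, was present at 18 to 131 counts and was the only tested gene of the 6 markers, and EMX2 had at most 22. The summed level of the 6 markers was 0.915 to 2.67 CPM over the normoxia libraries and 2.46 to 6.52 CPM over the hypoxia libraries. VIM, a mesenchymal intermediate filament gene, had 41193 to 152832 counts, whereas CDH2, which encodes N-cadherin, had at most 6. Among regulators that sustain epithelial genes, GRHL2 had at most 4 counts, OVOL1 at most 6, ESRP1 at most 18 and ESRP2 at most 3. Of the 6 ovarian markers, MUC16, SOX17 and MECOM were thus at or near the detection limit in all 3 clones and PAX8 was present. Among the 10 epithelial genes EPCAM and KRT18 were high and CDH1 and KRT7 were at or near the limit. The libraries therefore carried only some of the markers of the labelled line, and the identity of the line was not tested.

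To ask whether XIST KD changed these genes in normoxia, each KD clone was compared with sgCtl by edgeR's quasi-likelihood test, and a gene was called where the adjusted p was below 0.01 and the log2 fold change was beyond 1 in either direction. Only 4 of the 10 genes, EPCAM, KRT8, KRT18 and MUC1, passed the filter and were tested. KRT8 was up-regulated in both clones, and EPCAM, KRT18 and MUC1 were not called. So 1 of 4 tested genes was called in each clone, against 7.76% of all tested genes in sgXIST7 and 7.7% in sgXIST9. Over the 4 genes the log2 fold changes had a median of 0.72 in sgXIST7 and 0.23 in sgXIST9, beside -0.01 and -0.02 over all tested genes.

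KRT8 had 9.59, 8.74 and 9.07 CPM in the sgCtl normoxia libraries, 28.9, 43.3 and 31.9 in sgXIST7 and 31.5, 34.4 and 35.7 in sgXIST9. All 6 KD libraries lay above the 3 sgCtl libraries, and the KD clones overlapped each other. The log2 fold change was 1.92 ± 0.195 (SE) in sgXIST7 (adjusted p = 1.5e-06, edgeR), a 3.79-fold increase, and 1.89 ± 0.195 in sgXIST9 (adjusted p = 1.5e-06, edgeR), a 3.70-fold increase. The two-sided exact permutation test gave p = 0.1 for each clone, the smallest value that 3 against 3 libraries allow, and 0.157 after Benjamini-Hochberg adjustment over the 36 such tests made on the 4 genes. In bulk RNA a higher share of KRT8-positive cells and more KRT8 RNA per cell cannot be told apart.

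KRT18, the type I partner of KRT8, did not move with it. It had 159, 165 and 179 CPM in sgCtl normoxia, 136, 130 and 155 in sgXIST7 and 168, 162 and 160 in sgXIST9. The sgXIST7 libraries lay just below those of sgCtl, and the sgXIST9 libraries lay among them. The log2 fold change was -0.26 ± 0.12 in sgXIST7 (adjusted p = 0.15, edgeR) and -0.04 ± 0.12 in sgXIST9 (adjusted p = 0.87, edgeR).

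EPCAM had 202, 177 and 198 CPM in sgCtl normoxia, 197, 169 and 219 in sgXIST7 and 250, 237 and 242 in sgXIST9. The sgXIST9 libraries were above all others in normoxia, and sgXIST7 overlapped sgCtl. The log2 fold change was 0.02 ± 0.10 in sgXIST7 (adjusted p = 0.91, edgeR) and 0.34 ± 0.10 in sgXIST9 (adjusted p = 0.019, edgeR), under the fold minimum and above the p threshold.

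MUC1 was near the limit in normoxia, with 12, 13 and 10 counts in sgCtl, 18, 78 and 31 in sgXIST7 and 20, 21 and 9 in sgXIST9. These are 0.805, 1.01 and 0.574 CPM in sgCtl, 0.778, 4.33 and 1.35 in sgXIST7 and 0.893, 1.12 and 0.526 in sgXIST9. The groups overlapped, and sgXIST7 replicate 2 was the highest library. In sgXIST7 its log2 fold change was 1.42 ± 0.60 (adjusted p = 0.11, edgeR), or 0.44 without that library, and in sgXIST9 it was 0.12 ± 0.65 (adjusted p = 0.93, edgeR).

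**Figure D2:**
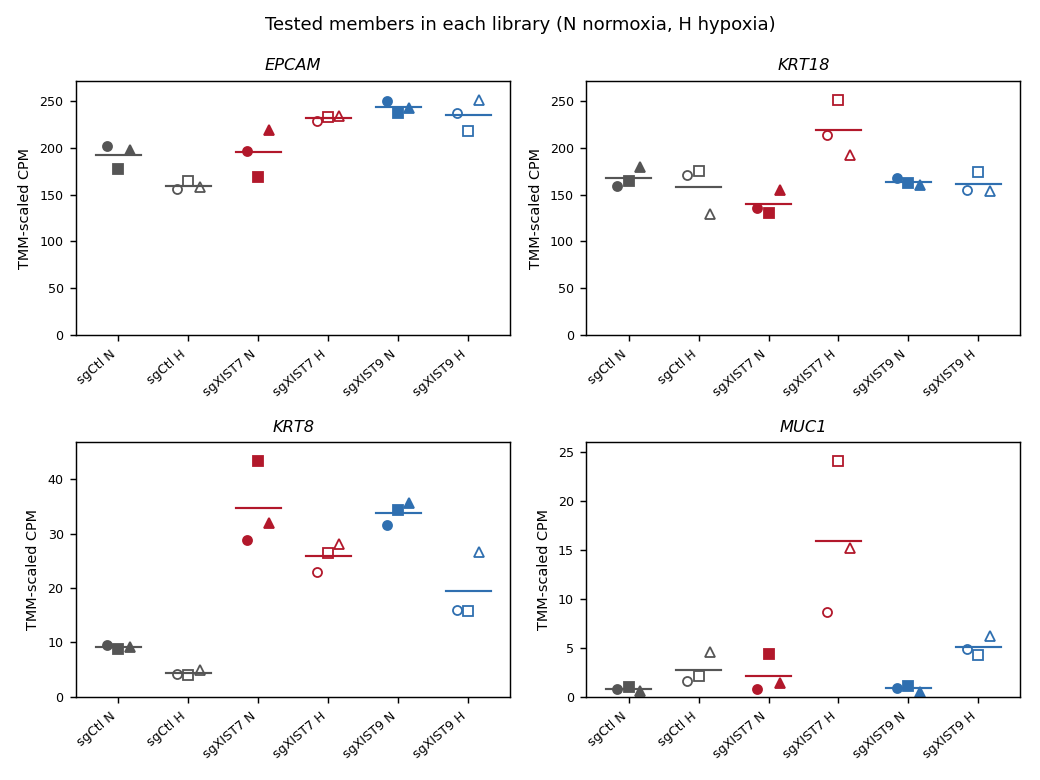
TMM-scaled CPM (y axes, from 0) of EPCAM, KRT18, KRT8 and MUC1 in each library, by group (x axes, N normoxia and H hypoxia, filled and open symbols; circle, square and triangle are replicates 1, 2 and 3; bars are means of 3). KRT8 is higher in every KD library than in every sgCtl library at the same oxygen level, and MUC1 is highest in sgXIST7 hypoxia, at 8.65 to 24.1 CPM.

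In hypoxia, KRT8 was again up-regulated in both clones, and MUC1 was up-regulated in sgXIST7. EPCAM was higher in both clones by a change below the fold minimum. Of the 4 tested genes, 2 were called in sgXIST7, against 14% of all tested genes, and 1 in sgXIST9, against 9.53%. Their median change on the log2 scale was 1.55 in sgXIST7 and 0.75 in sgXIST9, beside -0.02 and -0.01 over all tested genes. Both KD clones were compared with the same sgCtl libraries, so the clones are not independent of each other in either oxygen level.

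KRT8 had 4.19, 4.07 and 4.96 CPM in sgCtl hypoxia, 22.9, 26.5 and 28.1 in sgXIST7 and 16.0, 15.7 and 26.6 in sgXIST9. Every KD library was above every sgCtl library, and sgXIST9 replicate 3 was the one sgXIST9 library within the range of sgXIST7. The log2 fold change was 2.56 ± 0.21 in sgXIST7 (adjusted p = 9.1e-08, edgeR), which is 5.89-fold, and 2.14 ± 0.21 in sgXIST9 (adjusted p = 6.9e-07, edgeR), which is 4.42-fold. Without the hypoxia libraries numbered 3 these values were 2.58 and 1.94, and both were still called.

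MUC1 had 1.63, 2.08 and 4.52 CPM in sgCtl hypoxia, 8.65, 24.1 and 15.2 in sgXIST7 and 4.88, 4.27 and 6.25 in sgXIST9. The sgXIST7 libraries were above all others, and those of sgXIST9 overlapped the highest sgCtl library, replicate 3. The log2 fold change was 2.58 ± 0.52 in sgXIST7 (adjusted p = 0.00083, edgeR), which is 5.98-fold. It was 0.94 ± 0.51 in sgXIST9 (adjusted p = 0.18, edgeR). Without the hypoxia libraries numbered 3 the values were 3.13, still called, and 1.29, not called.

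EPCAM had 156, 165 and 158 CPM in sgCtl hypoxia, 228, 233 and 234 in sgXIST7 and 237, 218 and 251 in sgXIST9, with no overlap between sgCtl and either clone. EPCAM thus differed from sgCtl on the log2 scale by 0.54 ± 0.10 in sgXIST7 (adjusted p = 4e-04, edgeR) and 0.56 ± 0.10 in sgXIST9 (adjusted p = 0.00038, edgeR), so the p threshold was passed and the fold minimum was not. KRT18 had 171, 175 and 129 CPM in sgCtl hypoxia, 214, 251 and 192 in sgXIST7 and 155, 174 and 154 in sgXIST9. Only sgXIST7 stood above sgCtl, with a log2 fold change of 0.47 ± 0.12 (adjusted p = 0.0065, edgeR), and in sgXIST9 it was 0.02 ± 0.12 (adjusted p = 0.93, edgeR).

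**Figure D3:**
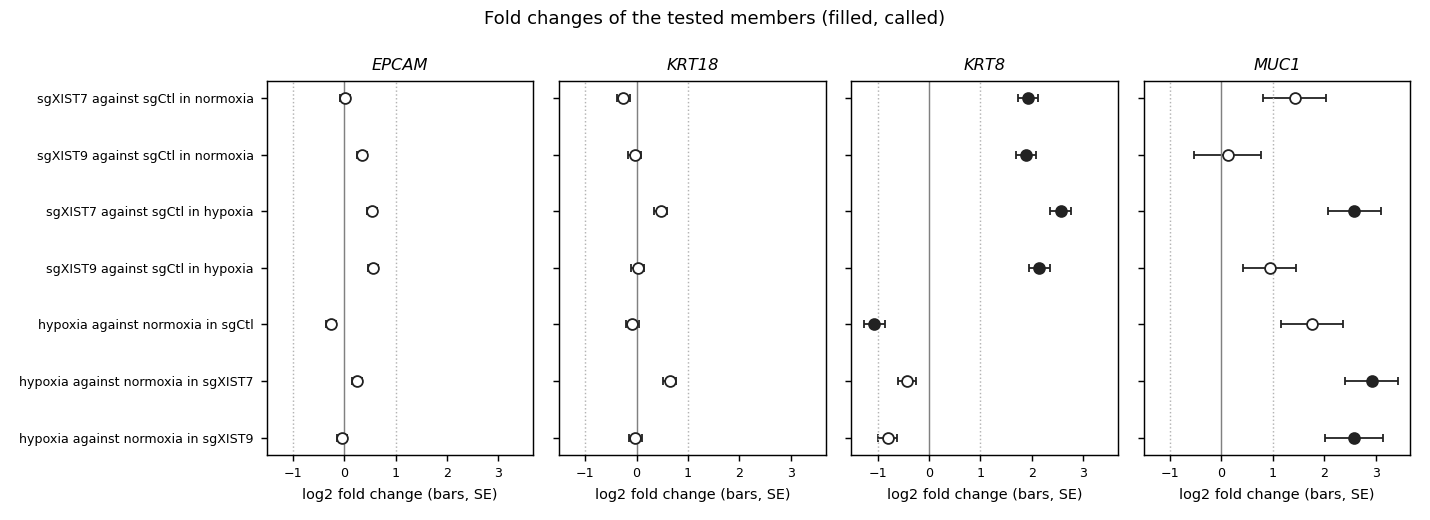
Log2 fold changes (x axes, bars are SE, dotted lines at -1 and 1) of EPCAM, KRT18, KRT8 and MUC1 in 7 comparisons (y axis), where filled points were called. KRT8 is called in all 4 comparisons of a KD clone with sgCtl, at 1.89 to 2.56, and MUC1 is called in sgXIST7 hypoxia against sgCtl and in hypoxia against normoxia in both KD clones.

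Comparing the KD clones with each other asks whether the guides gave the same levels. None of the 4 tested genes was called between sgXIST7 and sgXIST9 in normoxia, where 3.4% of all tested genes were called, or in hypoxia, where 4.46% were. At an unadjusted p under 0.05, EPCAM and MUC1 passed in normoxia and KRT8, KRT18 and MUC1 in hypoxia. KRT8 differed between the clones by 0.04 ± 0.18 in normoxia (adjusted p = 0.94, edgeR) and by 0.41 ± 0.185 in hypoxia (adjusted p = 0.13, edgeR). MUC1 was 1.64 ± 0.485 higher on the log2 scale in sgXIST7 than in sgXIST9 in hypoxia (adjusted p = 0.026, edgeR), with no overlap of libraries, and DESeq2 called this difference (1.68, adjusted p = 0.0094). Without the hypoxia libraries numbered 3, the difference in KRT8 was 0.64 (adjusted p = 0.0068, edgeR), under the fold minimum. That in MUC1 was then 1.85 (adjusted p = 0.039, edgeR), above the p threshold.

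After 24 h of hypoxia KRT8 was lower and MUC1 higher in each clone, but in no clone were both called. KRT8 was down-regulated in sgCtl and MUC1 was up-regulated in both KD clones. The share of called genes among all tested was large in these comparisons, 19.7% in sgCtl, 27.3% in sgXIST7 and 23.3% in sgXIST9. In each, 1 of the 4 tested genes was called, which is near that share. As a median over the 4, the log2 fold change was -0.17 in sgCtl, 0.45 in sgXIST7 and -0.04 in sgXIST9, beside 0.02, 0.01 and 0.09 over all tested genes.

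For KRT8, the mean fell from 9.13 ± 0.43 to 4.41 ± 0.485 CPM in sgCtl (SD, n = 3), with a log2 fold change of -1.06 ± 0.21 (adjusted p = 0.00048, edgeR). In sgXIST7 the means were 34.7 ± 7.56 and 25.8 ± 2.65 CPM in normoxia and hypoxia, with a log2 fold change of -0.43 ± 0.18 (adjusted p = 0.054, edgeR). The sgXIST9 means were 33.8 ± 2.16 and 19.4 ± 6.18 CPM, with a log2 fold change of -0.80 ± 0.185 (adjusted p = 0.0014, edgeR) that missed the fold minimum. The hypoxia libraries lay below the normoxia libraries in each clone. Without sgXIST9 hypoxia replicate 3, which had 26.6 CPM beside 16.0 and 15.7, the value in sgXIST9 was -1.09 and KRT8 was called. Without the hypoxia libraries numbered 3 of all clones, KRT8 was called in sgCtl (-1.14) and sgXIST9 (-1.085). In sgXIST7 the value was then -0.475 (adjusted p = 0.0082, edgeR), under the fold minimum. Even in hypoxia, the lowest KD library held 15.7 CPM of KRT8, against at most 9.59 in sgCtl normoxia.

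For MUC1, the means were 0.795 ± 0.216 and 2.74 ± 1.56 CPM in sgCtl normoxia and hypoxia, 2.15 ± 1.91 and 16.0 ± 7.76 in sgXIST7, and 0.845 ± 0.298 and 5.13 ± 1.02 in sgXIST9. Every hypoxia library was above every normoxia library of its clone. On the log2 scale MUC1 was higher in hypoxia by 2.92 ± 0.52 in sgXIST7 (adjusted p = 0.00013, edgeR) and by 2.58 ± 0.56 in sgXIST9 (adjusted p = 0.00092, edgeR). In sgCtl the value was 1.76 ± 0.61 (adjusted p = 0.023, edgeR) and was not called. DESeq2 called it in sgCtl (1.81, adjusted p = 0.0049). Without sgXIST7 normoxia replicate 2 the value in sgXIST7 was 3.90. Without the hypoxia libraries numbered 3 the values were 1.25, 2.98 and 2.42, with the same calls.

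EPCAM and KRT18 were not called in any clone. The EPCAM log2 fold change in hypoxia was -0.27 ± 0.10 in sgCtl (adjusted p = 0.032, edgeR), 0.25 ± 0.10 in sgXIST7 (adjusted p = 0.037, edgeR) and -0.05 ± 0.10 in sgXIST9 (adjusted p = 0.70, edgeR). For KRT18 it was -0.08 ± 0.12 in sgCtl (adjusted p = 0.61, edgeR), 0.65 ± 0.12 in sgXIST7 (adjusted p = 0.00027, edgeR) and -0.03 ± 0.12 in sgXIST9 (adjusted p = 0.88, edgeR), the sgCtl and sgXIST9 values having changed sign under some settings. The sgXIST7 hypoxia libraries thus held the most KRT18 of all groups, at 219 ± 29.9 CPM.

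Whether a KD clone responded to hypoxia differently from sgCtl was tested as an interaction. None of the 4 genes was called for sgXIST7, where 1.52% of all tested genes were, or for sgXIST9, where 1.01% were. At an unadjusted p under 0.05, EPCAM, KRT8 and KRT18 passed for sgXIST7 and none passed for sgXIST9, and DESeq2 also called none. The interaction of KRT18 in sgXIST7 was 0.73 ± 0.175 on the log2 scale (adjusted p = 0.018, edgeR) and that of EPCAM was 0.52 ± 0.14 (adjusted p = 0.031, edgeR). KRT8 had interactions of 0.63 ± 0.28 in sgXIST7 (adjusted p = 0.16, edgeR) and 0.26 ± 0.28 in sgXIST9 (adjusted p = 0.64, edgeR), and those of MUC1 were 1.16 ± 0.80 (adjusted p = 0.37, edgeR) and 0.82 ± 0.84 (adjusted p = 0.62, edgeR). Without the hypoxia libraries numbered 3, those of KRT8 were 0.67 (adjusted p = 0.036, edgeR) and 0.06. Those of MUC1 were then 1.73 and 1.17, and none was called. The larger fold of MUC1 in the KD clones was therefore not shown to differ from that in sgCtl.

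Since KRT8 and KRT18 assemble as partners, their levels per kilobase were set against each other in each library. Counted this way, KRT8 was far below KRT18 in every group. The size of the ratio depends on how reads from windows found elsewhere in the genome (34.2% for KRT8, 34.3% for KRT18) were treated. It also depends on how reads from the 135 shared exonic bases were counted, and neither setting is given, so the ratio is not a measure of the balance of the partners. In sgCtl normoxia the ratio of KRT8 to KRT18 was 0.0397, 0.0349 and 0.0333, and in sgCtl hypoxia 0.0161, 0.0153 and 0.0253. It was 0.14, 0.22 and 0.136 in sgXIST7 normoxia and 0.124, 0.139 and 0.147 in sgXIST9 normoxia. In hypoxia it was 0.0705, 0.0696 and 0.0963 in sgXIST7 and 0.0682, 0.0596 and 0.114 in sgXIST9. Both KD clones were above sgCtl without overlap at each oxygen level, by 4.6-fold and 3.8-fold in normoxia and by 4.17-fold and 4.27-fold in hypoxia for sgXIST7 and sgXIST9. Within each clone the ratio was lower in hypoxia, at 0.525, 0.476 and 0.59 times its normoxia mean in sgCtl, sgXIST7 and sgXIST9. Each of these 7 differences gave p = 0.1 by the two-sided exact permutation test, the smallest possible, and 0.129 after adjustment over 9 comparisons. The KD clones overlapped each other in normoxia (exact p = 0.5) and in hypoxia (exact p = 1).

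**Figure D4:**
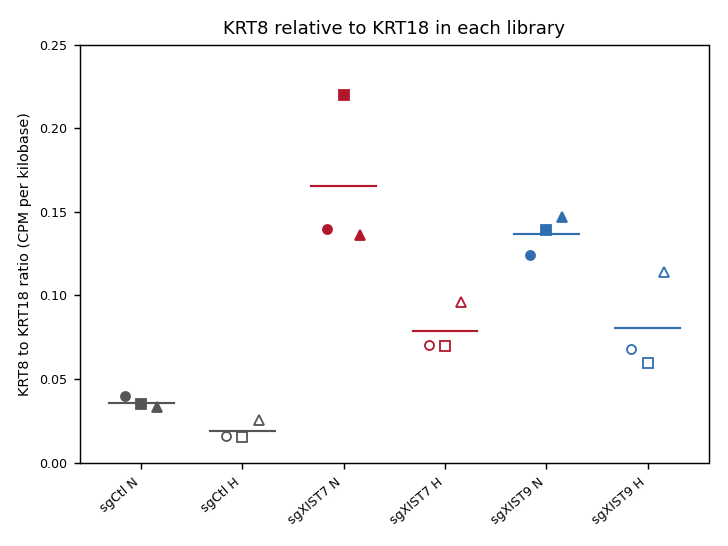
Ratio of KRT8 to KRT18 in CPM per kilobase (y axis, from 0) in each library, by group (x axis, N normoxia and H hypoxia, filled and open symbols; circle, square and triangle are replicates 1, 2 and 3; bars are means of 3). The KD clones have means of 0.165 and 0.137 in normoxia, above 0.036 in sgCtl, and each clone is lower in hypoxia.

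Other genes of the same structures were taken from lists of general knowledge. Of 15 genes of adherens junctions and desmosomes, 12 were tested and DSG2, a desmosomal cadherin, was down-regulated in both clones in normoxia. DSG2 had 63, 40 and 17 counts in sgCtl normoxia, at most 2 in sgXIST7 and 0 in sgXIST9, so it was at least 19.4-fold and 17.7-fold lower. No gene of the list was up-regulated in normoxia, and the median log2 fold change was 0.10 in sgXIST7 and -0.12 in sgXIST9. In hypoxia JUP, the plakoglobin gene that links cadherins to the cytoskeleton, was up-regulated in sgXIST7 (1.04 ± 0.20, adjusted p = 0.00055, edgeR) and sgXIST9 (1.85 ± 0.20, adjusted p = 2.5e-06, edgeR). PKP3, a plakophilin, was up-regulated in sgXIST7 by 1.40, and DSG2 was lower in both, the call in sgXIST9 being lost in 4 of 6 fits that left out a library, so that of the 12 tested 2 rose and 2 fell in sgXIST7 (NECTIN1 being the other that fell) and 1 rose and 1 fell in sgXIST9, beside 14% and 9.53% called in either direction over all tested genes. In sgXIST7 the call of JUP was lost in 2 and that of NECTIN1 in 4 of 6 fits that left out a library.

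Of 15 tight junction genes, 12 were tested. In normoxia 4 were up-regulated and 2 down-regulated in sgXIST7, and 3 and 2 in sgXIST9, and the list medians were 0.26 and 0.12. Over all tested genes 7.76% and 7.7% were called in either direction. MARVELD3, a membrane protein of tight junctions, had 41, 28 and 16 counts in sgCtl, 358, 388 and 474 in sgXIST7 and 320, 272 and 220 in sgXIST9. Its log2 fold change was 3.32 ± 0.34 and 2.85 ± 0.34, and in hypoxia 2.88 ± 0.32 and 2.99 ± 0.32. CGN, which encodes the junction protein cingulin, had log2 fold changes of 1.45 and 1.01 in normoxia, and the call in sgXIST9 was lost with upper-quartile scaling and in 4 of 6 fits that left out a library. CLDN1, a claudin with only 7, 7 and 10 counts in sgCtl normoxia, was at the limit in both KD clones, at least 3.71-fold and 3.38-fold lower, and DESeq2 called it in neither. Its call was also lost in 6 of 6 fits that left out a library in sgXIST7 and in 3 of 6 in sgXIST9. PARD6B, a polarity gene, fell from 303 ± 6.63 CPM to 113 ± 8.41 in sgXIST7 and 109 ± 9.28 in sgXIST9, by 1.43 and 1.48 on the log2 scale. In hypoxia 3 genes of the list were up-regulated in sgXIST7 and 5 in sgXIST9, and none was down-regulated, beside 14% and 9.53% called in either direction over all tested genes. TJP3, a scaffold gene of these junctions, had 1.63, 1.04 and 3.46 CPM in sgCtl hypoxia, 23.5, 27.2 and 31.9 in sgXIST7 and 19.1, 15.5 and 31.4 in sgXIST9, with log2 fold changes of 3.83 and 3.51.

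Beyond the 4 keratins among the 10 genes, only KRT80 of 12 further keratins was tested. KRT5 and KRT20 had 0 counts in every library and KRT14 at most 1. KRT80 had 43, 20 and 22 counts in sgCtl normoxia, 504, 317 and 373 in sgXIST7 and 156, 101 and 82 in sgXIST9. It was up-regulated in sgXIST7 (3.29 ± 0.43), and in sgXIST9 the value of 1.59 was not called. In hypoxia it fell by 2.46 in sgXIST7 and 2.33 in sgXIST9 on the log2 scale, and its log2 fold change in sgCtl was -0.02. Its interactions of -2.44 in sgXIST7 and -2.31 in sgXIST9 were not called. The response of KRT80 in the KD clones was therefore not shown to differ from that in sgCtl.

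Of 14 mucins and surface proteases and their inhibitors, 13 were matched and 3 were tested, MUC15, PRSS8 and SPINT2. PRSS8, a membrane serine protease of epithelia, was at 3, 4 and 8 counts in sgCtl normoxia, 48, 88 and 57 in sgXIST7 and 36, 33 and 24 in sgXIST9. It was up-regulated in both clones at both oxygen levels, by 3.22 and 2.25 in normoxia and 3.98 and 3.80 in hypoxia, and lost its call in sgXIST9 normoxia when sgCtl replicate 1 was left out. MUC15, a transmembrane mucin, was highest in sgXIST9, with 57.3, 52.9 and 60.6 CPM in normoxia against 3.49, 2.17 and 0.804 in sgCtl and 5.36, 3.55 and 5.14 in sgXIST7. It was called in sgXIST9 in normoxia (4.75) and in both clones in hypoxia (2.90 and 5.70), and it differed between the KD clones by -3.59 in normoxia and -2.79 in hypoxia. MUC1 had the opposite order between the KD clones, without a call. MUC4 had at most 4 counts in a library and MUC5AC at most 2.

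Regulators of epithelial genes were mostly low. Of 14 such genes 7 were tested. In normoxia 2 rose in sgXIST7 and 1 in sgXIST9, and none fell, beside 7.76% and 7.7% called over all tested genes. In hypoxia 3 rose and 1 fell in sgXIST7, and 1 rose and 3 fell in sgXIST9, beside 14% and 9.53%. OVOL2, a repressor of EMT genes, had 4, 0 and 1 counts in sgCtl normoxia, 70, 41 and 56 in sgXIST7 and 31, 34 and 36 in sgXIST9, and was up-regulated in both clones, by 4.47 ± 0.64 and 3.91 ± 0.66. In hypoxia the values were 1.96 and 2.75, the call in sgXIST7 being lost in 8 of 15 alternative settings. ELF3, an epithelial ETS factor, was up-regulated in sgXIST7 alone of the KD clones (3.04 in normoxia, where the call was lost in 4 of 6 fits that left out a library, and 3.605 in hypoxia) and higher there than in sgXIST9. In normoxia, where sgXIST9 was at the limit, it was at least 13.2-fold higher, a call lost in 4 of 6 fits that left out a library, and in hypoxia the difference was 3.47. GRHL1, a grainyhead factor, was down-regulated in both clones in hypoxia, with log2 fold changes of -2.44 and -1.69, the call in sgXIST9 being lost in 3 of 6 fits that left out a library. KLF4 (-1.84) and KLF5 (-1.63) were also down-regulated in sgXIST9 hypoxia, and these calls held in 2 and 5 of 6 such fits. Without the hypoxia libraries numbered 3, KLF4 and KLF5 were called down in both clones.

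Among 10 transcription factors that drive EMT, 8 were tested and moved in both directions. ZEB2 had 419, 425 and 462 counts in sgCtl normoxia, 47, 54 and 50 in sgXIST7 and 2, 2 and 1 in sgXIST9. Its log2 fold change in sgXIST7 was -3.61 ± 0.26 (adjusted p = 2.7e-08, edgeR), and it was at least 187-fold lower in sgXIST9. TWIST1 had 48, 52 and 79 counts in sgCtl normoxia, 7, 9 and 24 in sgXIST7 and 2, 1 and 0 in sgXIST9, a log2 fold change of -2.65 ± 0.365 in sgXIST7, and in sgXIST9 it was lower by at least 25.1-fold. SNAI2 went the other way, with 7, 3 and 3 counts in sgCtl normoxia, 93, 49 and 85 in sgXIST7 and 102, 132 and 109 in sgXIST9, log2 fold changes of 3.57 ± 0.66 and 4.34 ± 0.65. ZEB1 was present at 20.5 to 33.2 CPM in all libraries and was not called in either clone. SNAI1 was not called in normoxia, was up-regulated by hypoxia in sgCtl (1.95) and was lower in sgXIST7 than in sgCtl in hypoxia (-2.41), where sgCtl replicate 3 had 46 counts beside 215 and 333. ZEB2 and TWIST1 were also lower in both KD clones in hypoxia, at -3.505 and -7.91 for ZEB2 and -1.58 and -5.21 for TWIST1. SNAI2 had log2 fold changes of 1.86 in sgXIST7 hypoxia, a call lost in 8 of 15 alternative settings, and 1.815 in sgXIST9 hypoxia, which was not called. PRRX1, another such factor, went in opposite directions in hypoxia. It was up-regulated in sgXIST7 (2.24), with 29, 53 and 31 counts against 6, 9 and 6 in sgCtl, and was at least 2.93-fold lower in sgXIST9, where the call was lost in 4 of 14 alternative settings. CDH1, whose promoter these factors are known to repress, was at the detection limit in all groups.

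Of 10 mesenchymal genes 5 were tested. FN1 was down-regulated in both clones in normoxia, with log2 fold changes of -1.335 and -2.525, the call in sgXIST7 being lost when sgCtl replicate 2 or sgXIST7 replicate 3 was left out. VIM was called in sgXIST7 hypoxia alone among the KD comparisons with sgCtl (1.22 ± 0.17), where LOX was also called (3.26). Most of the summed level of these 10 mesenchymal genes came from VIM, the highest, and S100A4. They had 41193 to 152832 and 4771 to 33682 counts in a library, and no other gene of the list had over 2038. The sum thus says little of the other genes, and in normoxia no gene of the list was up-regulated in either clone. The summed level did not overlap between sgCtl and either clone, and how many of all tested genes also lacked overlap was not tested. In normoxia it was 3.81e+03 to 4.25e+03 CPM in sgCtl, 6.58e+03 to 6.75e+03 in sgXIST7 and 6.47e+03 to 6.66e+03 in sgXIST9. In hypoxia it was 3.41e+03 to 4.67e+03, 7.81e+03 to 9.37e+03 and 6.44e+03 to 7.81e+03. Without the hypoxia libraries numbered 3, VIM in sgXIST9 hypoxia was 0.94 (adjusted p = 6.6e-07, edgeR), under the fold minimum. The list medians were 0.69 and -0.04 in normoxia and 0.65 and 0.85 in hypoxia. Of the hypoxia calls against sgCtl named for the listed genes, those of OVOL2 in sgXIST7 (1.56) and PRRX1 in sgXIST9 were lost without the hypoxia libraries numbered 3. Calls of SNAI2 in sgXIST9 (1.41) and of KLF4 (-1.65) and KLF5 (-1.41) in sgXIST7 were gained, and the value of ELF3 in sgXIST7 was 4.59.

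**Figure D5:**
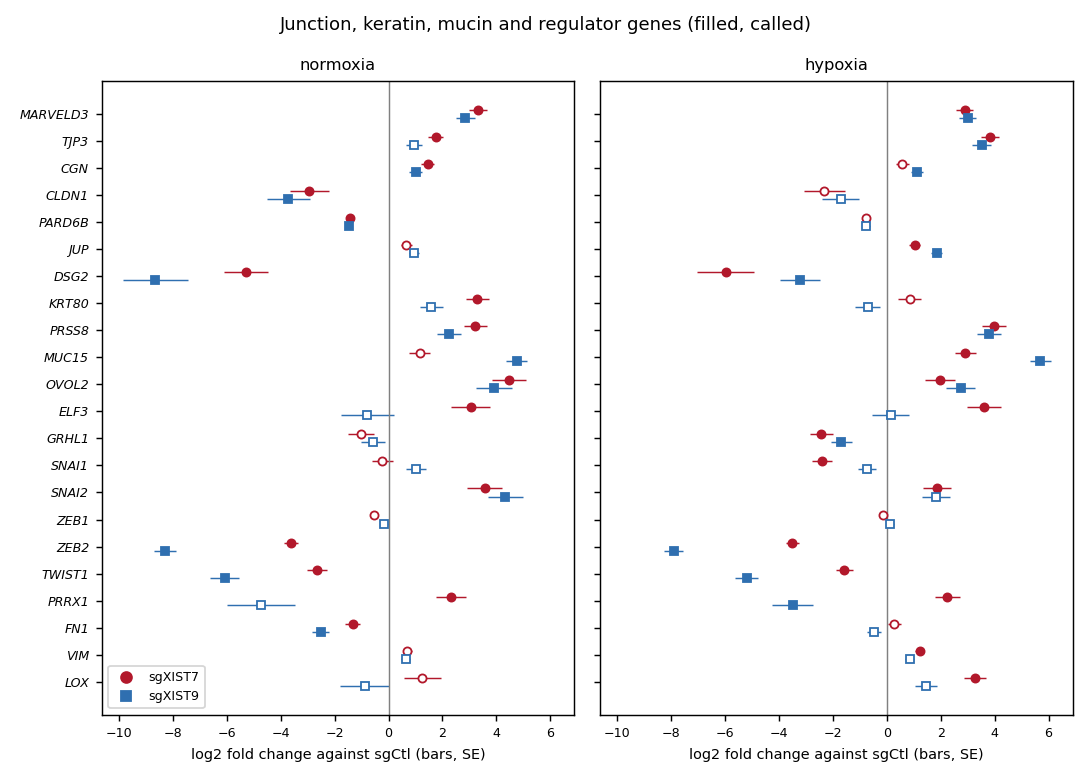
Log2 fold changes of each KD clone against sgCtl (x axes, bars are SE) in normoxia and hypoxia for junction, keratin, mucin and regulator genes (y axis), where filled symbols were called, circles are sgXIST7 and squares sgXIST9. MARVELD3, PRSS8 and OVOL2 are to the right in both clones and both panels, and DSG2, ZEB2 and TWIST1 to the left.

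Markers of other cell types were summed beside these values. Of 8 such genes 6 had over 3 counts in some library and 3 were tested. PTPRC and CD3E, which mark leukocytes and T cells, had at most 1 count in any library. The summed level was 25.4 to 30.7 CPM in sgCtl normoxia, 26.5 to 38.6 in sgXIST7 normoxia and 39.3 to 58.6 in sgXIST9 normoxia, and 13.1 to 28.3, 17.4 to 29.0 and 19.8 to 29.1 in hypoxia. Most of it was CD68, a lysosomal glycoprotein, at 202 to 1051 counts. COL1A1, a fibrillar collagen of fibroblasts, was up-regulated in both clones at both oxygen levels, from 25 counts summed over the sgCtl normoxia libraries to 168 in sgXIST7 and 129 in sgXIST9, the normoxia calls being lost in 2 and 5 of 6 fits that left out a library, and DCN was down-regulated in both in hypoxia. The part of these genes in the KRT8 and MUC1 results was not tested.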

How the data were processed

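Total RNA depleted of ribosomal RNA (TruSeq Stranded Total RNA, Ribo-Zero Gold) was sequenced as paired ends. Per the study's methods and processing notes, the authors trimmed reads with Trimmomatic, checked them with FastQC, used HISAT2 for alignment to hg38, and assigned reads to genes by featureCounts. The deposited values are raw counts, not normalized. Tool versions, and the strand and multi-mapping settings of the counting, are not given in the sources used here.

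Of the count table, 28277 genes were read and 2 broken lines were left out. Libraries held 11794375 to 24906936 counts (median 17629433), and limits of detection (3 counts in a library) cover counting error only. Genes were kept by edgeR's filterByExpr (minimum count 10, minimum total 15), which left 14938, and scaled by TMM. One quasi-likelihood model with 6 groups was fitted (edgeR 4.0.16, limma 3.58.1, R 4.3.3), with Benjamini-Hochberg adjustment over all 14938 genes in each of 11 comparisons, and SE was the log2 fold change divided by the root of F. Calls required an adjusted p below 0.01 and a log2 fold change beyond 1 in either direction. A fold against a group at or under 3 counts in each library is given as a lower bound.

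Named genes were the 10 genes, list genes called in both KD clones in the same direction at one oxygen level, the 2 called genes of each list with the largest change in a comparison, the regulators SNAI1, SNAI2, ZEB1, ZEB2, TWIST1, GRHL2, OVOL1, OVOL2, ESRP1 and ESRP2 with VIM and CDH2, CA9, VEGFA, NDRG1 and ANKRD37 as the check of hypoxia, and XIST; other list genes were named after their values were seen. Of the tight junction list, 1 gene is counted but not reported here by name. The members and lists were chosen with earlier results of these data known. Alternatives were DESeq2 1.42.0, median-of-ratios and upper-quartile scaling, no filter, no fold minimum, an adjusted p under 0.05, only the groups compared, a replicate block, leaving out each library, and leaving out the hypoxia libraries numbered 3. Same-numbered libraries were checked for shared deviations: every correlation was over 0.1 in 3 of 15 pairs of groups. The code was tested on simulated data.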

Additional observations from a re-analysis of the deposited data

Results flagged for a closer look

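The response to hypoxia differed between sgXIST7 and sgCtl for EPCAM by 0.515 on the log2 scale (adjusted p = 0.031, edgeR) and for KRT18 by 0.726 (adjusted p = 0.018, edgeR), both at an adjusted p under 0.05, which is looser than the rule used for calls. Under other settings the adjusted p reached 0.082 for EPCAM and 0.057 for KRT18 (edgeR), so neither kept to 0.05 throughout. EPCAM was lower in all 3 hypoxia libraries than in all 3 normoxia libraries of sgCtl and higher in all 3 of sgXIST7.

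Among genes of the lists, TJP3 responded differently in sgXIST7 by 2.09 (adjusted p = 0.0093, edgeR) and in sgXIST9 by 2.572 (adjusted p = 0.0038, edgeR), having fallen by 2.05 in sgCtl only. These calls held in 9 and 14 of 21 alternative settings, and in 2 and 6 of the 12 that left out a library. BSPRY differed in sgXIST7 by 2.011 (adjusted p = 0.004, edgeR), and FN1 differed in sgXIST9 by 2.054 (adjusted p = 0.0074, edgeR). The BSPRY call held in 12 of 21 settings and 4 of 12 without a library, and that of FN1 in 11 of 21 and 3 of 12. Each library was left out in turn, but no formal test for an outlying library was run on these groups of 3.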

How the results depend on the processing

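Of the counts of called genes among the 10, 164 values under other settings were within the main count's range and 10 were higher. DESeq2 called 1 gene between sgXIST7 and sgXIST9 in hypoxia (MUC1, 1.68, adjusted p = 0.0094) and 2 in hypoxia in sgCtl (MUC1 being added, 1.81, adjusted p = 0.0049), and an adjusted p under 0.05 gave the same 1 and 2. With no fold minimum the counts were 4 in sgXIST7 against sgCtl in hypoxia, 2 in sgXIST9 against sgCtl in hypoxia, and 2 and 2 in hypoxia against normoxia in sgXIST7 and sgXIST9. Without the hypoxia libraries numbered 3, 3 genes were called in hypoxia in sgXIST9 (KRT8, MUC1 and CLDN7, which passed the filter there). Leaving out single libraries gave 1 to 2 there, KRT8 being called at -1.09 without sgXIST9 hypoxia replicate 3. With the replicate block the count was 1 in normoxia for each clone and 2 in sgXIST7 hypoxia, and the block changed no count of called genes.

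Of the fold changes of single genes, 657 values kept direction and side of the threshold, 11 passed it and 28 changed sign, all of them of uncalled values near 0; the cause was not tested. KRT18 in sgXIST9 against sgCtl in hypoxia was -0.017 by DESeq2, -0.016 with median-of-ratios scaling and -0.078 without the hypoxia libraries numbered 3. EPCAM between the KD clones in hypoxia was 0.015 by DESeq2 and with median-of-ratios scaling and 0.026 without those libraries. With upper-quartile scaling the hypoxia values in sgXIST9 were 0.037 for EPCAM and 0.061 for KRT18, and without the libraries numbered 3 KRT18 was 0.049 in sgCtl and 0.013 in sgXIST9, with an interaction of -0.036. Leaving out single libraries gave, in normoxia, -0.069 to 0.117 for EPCAM in sgXIST7, -0.075 to 0.013 for KRT18 and -0.117 to 0.351 for MUC1 in sgXIST9, and -0.151 to 0.152 for KRT8 between the KD clones. It gave -0.111 to 0.092 for KRT18 in sgXIST9 against sgCtl in hypoxia, and -0.067 to 0.030 for EPCAM between the KD clones in hypoxia. For hypoxia against normoxia it gave -0.157 to 0.048 for KRT18 in sgCtl, -0.082 to 0.013 for KRT18 and -0.091 to 0.008 for EPCAM in sgXIST9. The sgXIST9 interactions ranged from -0.069 to 0.130 for KRT18 and from -0.028 to 0.385 for KRT8. Depth limits what can be said of CDH1, KRT7, KRT19, CLDN3, CLDN4 and CLDN7, at 0 to 16 counts in a library, and less so of MUC1 in normoxia, at 9 to 78.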
